A study of Mus musculus with 17 samples.

Results

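The 10 C-type lectin receptor genes of mouse macrophages were examined in polyA RNA-seq libraries from a study of the AP-1 transcription factors ATF3, Jun and JunD. The receptors were chosen by name, as the rows of the expression table whose symbol was Clec4n, Clec4d, Clec4e, Clec4a1, Clec4a2, Clec4a3, Clec7a, Clec12a, Clec5a or Clec10a. All 10 were found among 24453 gene models. The rule used names only, but the names were chosen with earlier results of these data known. Immortalized bone marrow-derived macrophages (iBMDMs) are a C57Bl/6EiJ line, labelled male, that carries BRAF(V600E) and Myc and was used at passage 3-8. Every iBMDM group received vehicle and carried Cas9, including the control, whose genotype is labelled scramble control (Scramble). The titles of the 2 Scramble libraries read zsGreen, where those of the other iBMDM groups read Veh. The knockouts are labelled Atf3KO, JunKO and JunDKO (JunD, gene symbol Jund). Each was made with lentiviral guides and sorted on a marker of infection, so a library holds a pool of edited cells and not a clone. Each of the 4 iBMDM groups had 2 libraries. Thioglycollate-elicited macrophages (TGEMs) are primary cells that are recruited into the mouse peritoneum. They came from adult male mice and received vehicle or the TLR4 agonist Kdo2 lipid A (KLA) for 1 h. There was 1 library of each treatment from C57Bl/6EiJ, and from Balb/cJ 1 with vehicle and 2 with KLA. The study's methods name the TGEM strain C57Bl/6J, whereas the labels give C57Bl/6EiJ. Nothing in the labels says that replicates came from separate cultures or animals, so p values measure the spread between libraries, which may be technical.

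C-type lectin receptors are membrane proteins whose lectin-like domains recognise sugars, lipids or proteins of microbes and of damaged cells. Activating members signal through an ITAM, a tyrosine motif that recruits the kinase Syk and, through it, the adaptor CARD9. Dectin-1 (Clec7a) carries such a motif in its own tail, Dectin-2 (Clec4n), MCL (Clec4d) and Mincle (Clec4e) borrow that of the FcR gamma chain (Fcer1g), and Clec5a borrows that of DAP12 (Tyrobp). Inhibitory members such as DCIR (Clec4a2) and Clec12a carry an ITIM, which recruits phosphatases. In macrophages the group is best known for the sensing of fungi and mycobacteria, and Mincle is a classical target of lipopolysaccharide signalling.

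Of the 10 genes, 9 lie on chromosome 6 (positions on GRCm38, 1-based). The Clec4 cluster spans chr6:122921848-123289871, 368 kb with 9 gene models, of which 6 are among the receptors described here. They are ordered Clec4a1 (122921848 to 122934619), Clec4a3 (122952515 to 122969878), Clec4a2 (123122690 to 123143999), Clec4n (123229843 to 123247024), Clec4d (123262107 to 123275268) and Clec4e (123281789 to 123289871). Clec4e is read from the minus strand and the other five from the plus strand. Further along the chromosome, Clec12a (129350244 to 129365303, plus) and Clec7a (129461591 to 129472779, minus) mark the ends of a cluster of 122.5 kb with 6 gene models. Clec5a (40574898 to 40585805, minus) stands alone on the same chromosome, and Clec10a is on chromosome 11 (70166623 to 70170836, plus). Of the exonic 50-base words of each gene, none of 7 receptors, 1.0% of Clec4n, 8.5% of Clec4a2 and 16.7% of Clec10a also occur in another gene, for Clec10a in its neighbour Mgl2, so reads of Clec4n, Clec4a2 and Clec10a could be split between copies.

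Promoters of 4 genes are shown, from 250 bases before to 50 bases after the annotated start (RefSeq, GRCm38.p6, gene strand, 5′ to 3′), because Clec4a1, Clec4e and Clec4a2 had less RNA in the Atf3KO and in the JunDKO libraries and Clec7a had less in Atf3KO but not in JunDKO. Capitals mark matches on either strand to the motifs named after the sequences, other than TATAAA.
Clec4a1, chr6:122921598-122921897, plus: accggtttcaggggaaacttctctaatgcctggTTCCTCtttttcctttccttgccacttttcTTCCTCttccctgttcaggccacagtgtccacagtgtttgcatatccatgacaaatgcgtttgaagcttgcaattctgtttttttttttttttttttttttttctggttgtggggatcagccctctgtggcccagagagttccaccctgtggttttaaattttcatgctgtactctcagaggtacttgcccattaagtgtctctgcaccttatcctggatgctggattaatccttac
Clec4e, chr6:123289822-123290121, minus: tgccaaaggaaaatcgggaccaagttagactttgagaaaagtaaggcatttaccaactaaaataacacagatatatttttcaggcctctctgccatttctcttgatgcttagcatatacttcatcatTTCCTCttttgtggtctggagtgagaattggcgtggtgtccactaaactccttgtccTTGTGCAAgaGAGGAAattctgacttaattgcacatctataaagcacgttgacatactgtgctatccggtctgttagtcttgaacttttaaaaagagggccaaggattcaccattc
Clec4a2, chr6:123122440-123122739, plus: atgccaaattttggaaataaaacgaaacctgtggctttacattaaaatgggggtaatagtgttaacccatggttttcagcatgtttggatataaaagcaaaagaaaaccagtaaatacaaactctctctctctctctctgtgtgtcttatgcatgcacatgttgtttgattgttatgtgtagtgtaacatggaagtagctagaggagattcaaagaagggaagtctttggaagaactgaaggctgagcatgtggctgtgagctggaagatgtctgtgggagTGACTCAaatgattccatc
Clec7a, chr6:129472730-129473029, minus: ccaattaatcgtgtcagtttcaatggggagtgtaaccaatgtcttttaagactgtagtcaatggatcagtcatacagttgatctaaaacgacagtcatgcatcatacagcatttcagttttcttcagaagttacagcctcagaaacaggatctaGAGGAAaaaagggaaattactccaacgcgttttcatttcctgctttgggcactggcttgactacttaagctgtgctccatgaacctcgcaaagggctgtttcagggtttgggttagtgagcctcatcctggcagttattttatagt
A promoter was found for 8 of the 10 genes, Clec4n and Clec10a having no entry. The AP-1 site TGAGTCA occurred in 1 of the 8 (Clec4a2, 31 bases after the start, as TGACTCA) and in 5.2% of 32851 mouse promoters. The related site TGACGTCA occurred in 0 of the 8 and in 1.79% of all. The PU.1 core GAGGAA occurred in 6 of the 8, all but Clec4a2 and Clec4a3 (at the start nearest the gene model), and in 28.3% of all. A C/EBP site, TTGCNNAA, was found in Clec4e and Clec12a and in 10.8% of all. The TATA word, TATAAA, was found on either strand in Clec4e, Clec4a2, Clec7a and Clec5a (13.6% of all). Relative to the start it lay at -29 in Clec4e and -161 in Clec4a2, on the gene strand. On the opposite strand, as TTTATA, it lay at 42 in Clec7a and -209 in Clec5a. These are matches of letters within 300 bases and do not show binding.

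Values are RPKM (reads scaled to exon length and library depth) as the authors deposited them, so levels can be compared between genes. Depth, read from the step of 1 read in the RPKM values, was 1553296 to 18444408 reads. In the libraries labelled as knockouts, the RNA of the targeted gene was not lost. Atf3 measured 154 and 169 RPKM in Atf3KO against 80.7 and 77.4 in Scramble, Jun 26.2 and 20.5 in JunKO against 17.6 and 18.5, and Jund 6.94 and 6.07 in JunDKO against 9.19 and 8.33. An edited gene can still be transcribed, so RPKM does not check an edit and the groups are named by their labels. The study examined the knockouts at the protein level by western blotting, which is not analysed here. The labelled cell type fitted its markers, as all 7 macrophage markers exceeded 1 RPKM in every group. Atf3KO replicate 2 has a later label date than the other 7 iBMDM libraries, and all 10 receptors were lower in it than in Atf3KO replicate 1 (median ratio of replicate 1 to 2, 1.67), whereas in the other iBMDM groups this median was 0.89 to 0.96. Of the receptors, 9 have exonic GC content under the 49.2% median of all gene models (range 36.8% to 51.5%, Clec10a highest). In Atf3KO, fold changes followed GC content (over 10617 genes, not independent of each other, Spearman's rho was 0.50), and genes under 43% GC had a median log2 change of -0.70 against 0.05 for all genes. Of the 10 receptors, 7 lie under 43%, a limit that was chosen after the values were seen. Values after removal of each library's GC trend are therefore given beside the calls that involve Atf3KO.

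**Figure D1:**
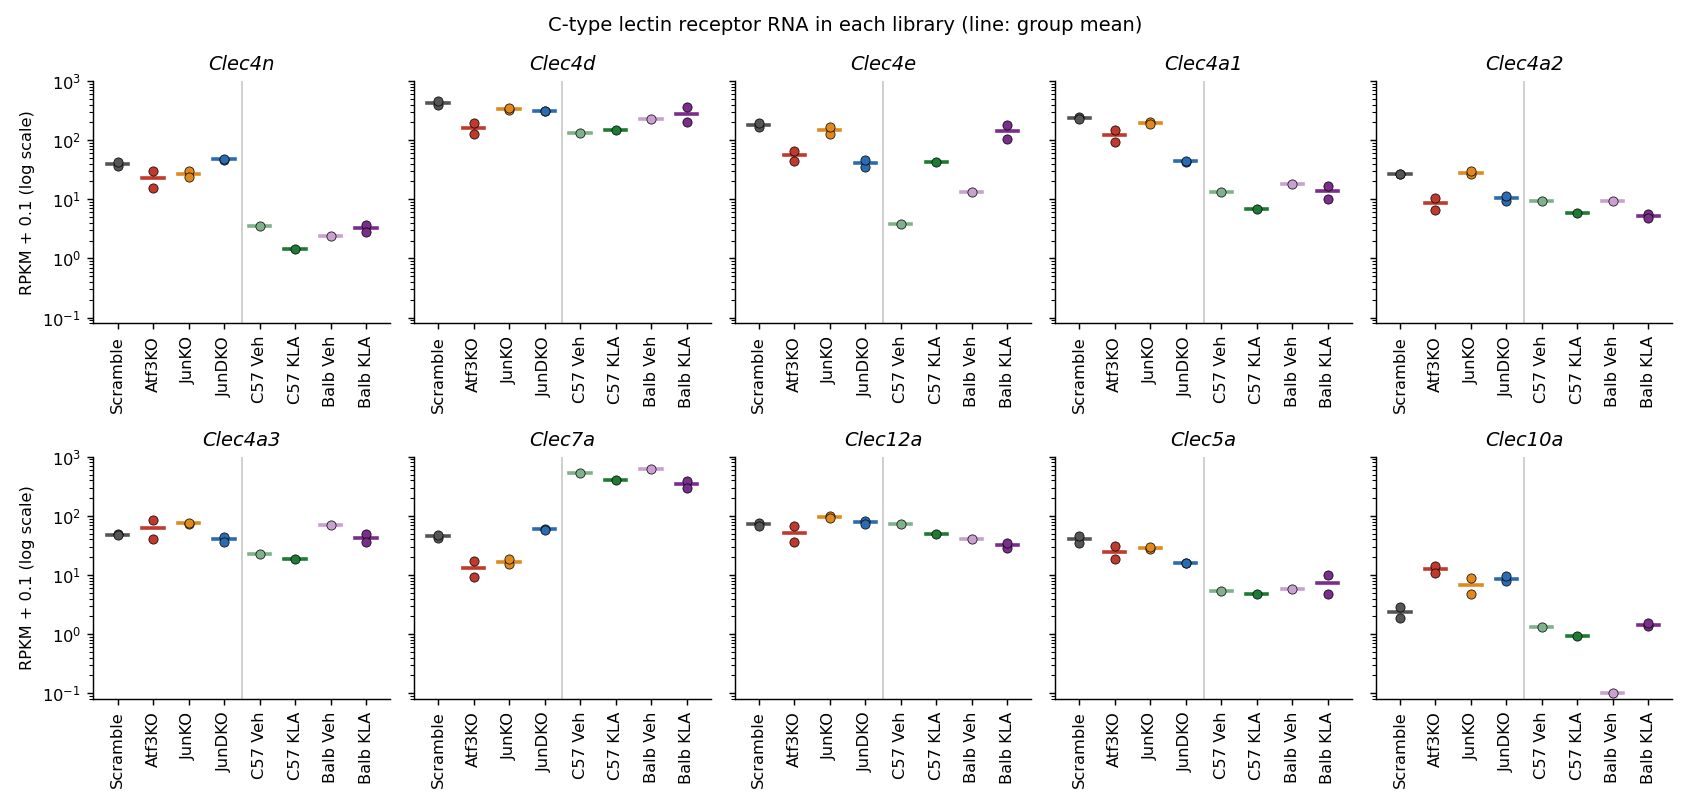
RPKM + 0.1 (log axis) of each receptor in each of 13 libraries, with 1 panel per gene, 1 point per library and a line at the mean of a group. Left of the grey line are iBMDM groups (2 libraries each), right of it TGEM groups (1 library each, 2 for Balb/cJ KLA). Clec7a lies between 296 and 612 RPKM in TGEMs and at most 59.95 in iBMDMs, Clec4e rises with KLA in both strains, and Clec4a1 is lowest among iBMDMs in JunDKO.

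Levels of the FcR gamma-coupled receptors in iBMDMs ran from 15.4 RPKM (Clec4n, Atf3KO) to 451 (Clec4d, Scramble). Clec4d, which pairs with Mincle, measured 387 and 451 RPKM (Scramble), 192 and 126 (Atf3KO), 320 and 349 (JunKO) and 311 and 310 (JunDKO). It was the highest of the 10 receptors in all 8 iBMDM libraries, with 29.1% to 47.6% of their summed RPKM. In TGEMs it measured 132 (C57Bl/6EiJ vehicle), 150 (C57Bl/6EiJ KLA), 229 (Balb/cJ vehicle), 358 and 206 (Balb/cJ KLA). Scramble stood at the top of the order of group means and Atf3KO lay among the TGEM groups, overlapping none of the other iBMDM groups. Clec4e, the receptor of mycobacterial cord factor, measured 166 and 194 RPKM (Scramble), 66.6 and 43.6 (Atf3KO), 128 and 166 (JunKO) and 34.9 and 46.0 (JunDKO). The Atf3KO and JunDKO libraries overlapped each other and lay below the other 4. In TGEMs Clec4e measured 3.74 and 13.3 RPKM with vehicle (C57Bl/6EiJ and Balb/cJ) and, with KLA, 43.2 in C57Bl/6EiJ and 183 and 103 in Balb/cJ, so that the KLA libraries lay above both vehicle libraries. Clec4n, which binds fungal mannans, measured 36.9 and 43.2 RPKM (Scramble), 29.6 and 15.4 (Atf3KO), 30.5 and 23.6 (JunKO) and 45.3 and 48.8 (JunDKO). JunKO and Atf3KO overlapped at the lower end. In all 5 TGEM libraries it was at 1.35 to 3.57 RPKM.

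The DCIR family differed among its members. Clec4a1 (DCIR4) measured 251 and 231 RPKM (Scramble), 150 and 92.0 (Atf3KO), 205 and 189 (JunKO) and 42.4 and 44.6 (JunDKO), with no overlap between any of the 4 groups. In TGEMs it measured 13.2 and 18.2 RPKM with vehicle and 6.74, 16.9 and 10.0 with KLA. Clec4a2 (DCIR) measured 26.4 and 27.1 RPKM (Scramble), 10.4 and 6.59 (Atf3KO), 26.7 and 29.8 (JunKO) and 9.15 and 11.5 (JunDKO). Scramble overlapped JunKO, and JunDKO overlapped Atf3KO. In TGEMs Clec4a2 was at 4.70 to 9.38 RPKM, with both vehicle libraries above the 3 KLA libraries. Clec4a3 measured 49.2 and 46.9 RPKM (Scramble), 83.6 and 40.4 (Atf3KO), 73.9 and 75.5 (JunKO) and 43.9 and 35.6 (JunDKO), and its Atf3KO libraries spanned those of the other 3 groups apart from the lower JunDKO library. In TGEMs it was higher in Balb/cJ (69.6 RPKM with vehicle, 48.98 and 35.8 with KLA) than in C57Bl/6EiJ (22.8 and 18.8).

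Clec7a, the beta-glucan receptor, measured 42.9 and 47.03 RPKM (Scramble), 17.2 and 9.05 (Atf3KO), 15.1 and 18.3 (JunKO) and 59.95 and 57.4 (JunDKO). Both JunKO libraries and both Atf3KO libraries lay below Scramble and both JunDKO libraries above it. In TGEMs Clec7a measured 535 and 612 RPKM with vehicle and 402, 382 and 296 with KLA. It was the highest of the 10 receptors in all 5 TGEM libraries, with 36.8% to 67.1% of the summed RPKM. Clec12a, at the other end of that cluster and an inhibitory receptor for uric acid crystals, measured 76.3 and 67.3 RPKM (Scramble), 67.0 and 35.4 (Atf3KO), 99.3 and 90.9 (JunKO) and 83.2 and 73.5 (JunDKO), and 28.8 to 71.7 in TGEMs. Clec5a measured 35.1 and 45.4 RPKM (Scramble), 31.0 and 18.3 (Atf3KO), 27.7 and 29.7 (JunKO), 15.5 and 15.9 (JunDKO) and 4.597 to 9.81 in TGEMs. Every iBMDM library thus lay above every TGEM library. Clec10a (MGL1), a receptor for galactose and N-acetylgalactosamine, had the lowest RPKM of the 10 receptors in 11 of 13 libraries, the exceptions being both Atf3KO libraries, where Clec4a2 was lower. It measured 1.74 and 2.75 RPKM (Scramble, 5 and 7 reads), 14.2 and 10.7 (Atf3KO), 8.68 and 4.71 (JunKO) and 7.80 and 9.34 (JunDKO), so that the Scramble libraries lay below all 6 knockout libraries. In TGEMs it was at 0.827 to 1.43 RPKM in 4 libraries and had 0 reads in Balb/cJ vehicle, where a count of 0 allows up to 0.862 RPKM (3 reads, counting error only).

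**Figure D2:**
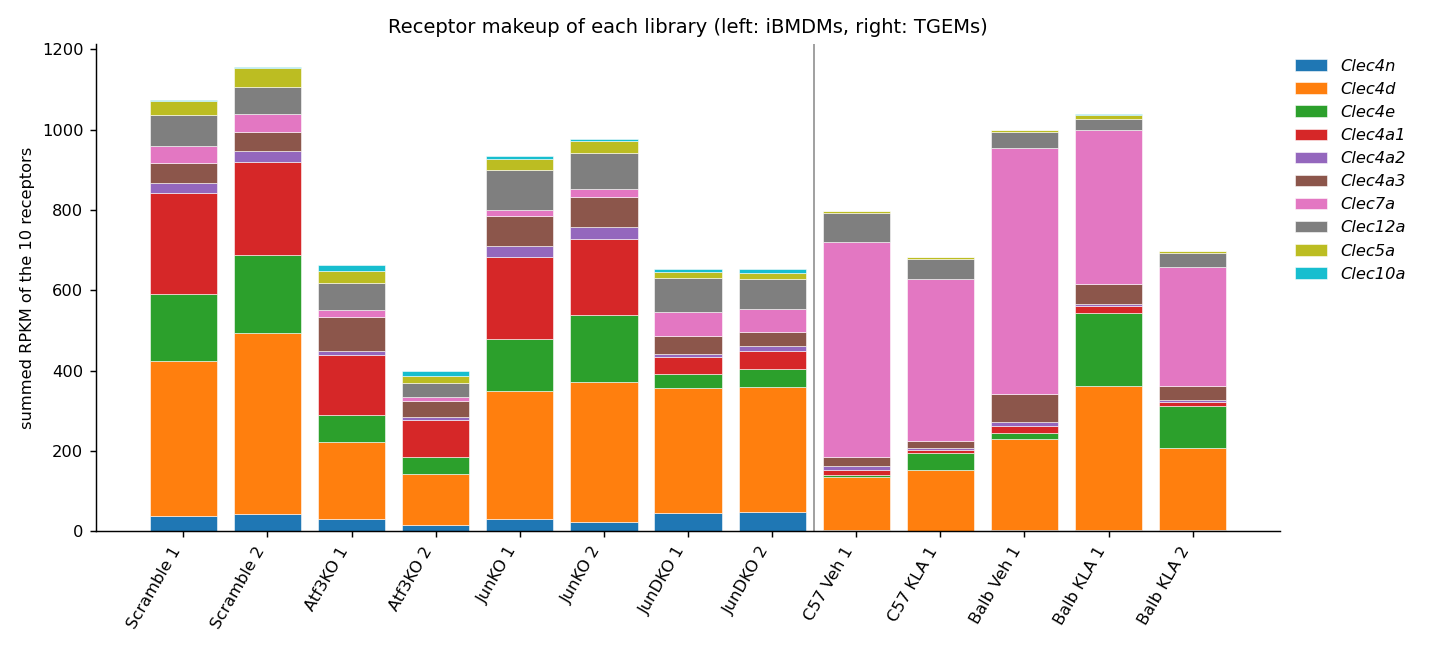
Summed RPKM of the 10 receptors in each library, stacked by gene, with iBMDM libraries left of the line and TGEM libraries right of it. Clec4d fills the largest share in the 8 iBMDM libraries (29.1% to 47.6%) and Clec7a in the 5 TGEM libraries (36.8% to 67.1%), and the sum is lowest in Atf3KO replicate 2 (397.8 RPKM).

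The knockouts addressed which RNAs change with loss of each AP-1 factor. Their comparisons share the 2 Scramble libraries and are given side by side. A gene was called at a limma-trend adjusted p under 0.05 over all tested genes, a fold change of at least 2 on the log2(RPKM + 1) scale with 16 RPKM or more as the mean of 1 of the groups. In the Atf3KO libraries 5 of the 10 receptors were called, all lower, where 12.5% of 10691 tested genes were called with 4.69% lower and 7.84% higher. Clec7a fell by 1.76 on the log2 scale (SE 0.28, n = 2 libraries per group, limma-trend adjusted p = 0.0026), Clec4e by 1.72 (SE 0.25, limma-trend adjusted p = 0.0022) and Clec4a2 by 1.58 (SE 0.24, limma-trend adjusted p = 0.0022). Clec4d fell by 1.42 (SE 0.22, limma-trend adjusted p = 0.0025) and Clec4a1 fell by 1.027 (SE 0.23, limma-trend adjusted p = 0.010). The median log2 fold change was -0.95 over the 10 receptors and 0.05 over all tested genes. Clec10a had a log2 change of 2.06 (SE 0.31, limma-trend adjusted p = 0.0023) but stayed under 16 RPKM. The ranges of the groups were apart for 9 receptors, 1 higher and 8 lower, against 70.8% of all tested genes.

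These values moved with GC content and with single libraries. After the GC trend was removed, 1 of the 10 receptors was called, where 7.68% of all tested genes were. This was Clec7a, with a log2 change of -1.01 (limma-trend adjusted p = 0.0031). Those of Clec4e, Clec4d, Clec4a1 and Clec4a2 were then -0.90, -0.65, -0.60 and -0.48. Clec4e, Clec4d and Clec4a1 kept a limma-trend adjusted p under 0.05 (0.0013, 0.0053 and 0.025) and Clec4a2 did not (0.061). Clec12a and Clec5a, at -0.55 and -0.72 as deposited, had values of 0.14 and 0.15 after the correction, Clec4a3 went from 0.27 to 0.99, and Clec10a had a value of 1.94. With the same correction and without Atf3KO replicate 2, Clec7a (-0.82) was no longer called and Clec4a3 (1.27, limma-trend adjusted p = 0.013) was called higher. Without either Scramble replicate 1 or 2, Clec4a1 was no longer called (limma-trend adjusted p = 0.056 and 0.053), nor was it without Atf3KO replicate 2 (log2 fold change -0.68). Without Atf3KO replicate 1, Clec4n (-1.32) and Clec5a (-1.09) were called as well, with limma-trend adjusted p of 0.0076 and 0.011. The Atf3KO libraries also held reads in fewer gene models (10425 and 10631) than the other 6 iBMDM libraries (11884 to 12533), although 5 of those 6 were shallower (1553296 to 1929988 reads against 4397165 and 7236842). In all, 697 gene models were at 0 in both Atf3KO libraries and had reads in each of the other 6, against 5, 6 and 29 models for Scramble, JunKO and JunDKO. The part of GC content, of the label date or of this lower number of gene models in the falls was not tested. In RNA of whole cultures, fewer cells that express a receptor and less RNA per cell cannot be told apart.

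In the JunKO libraries 0 of the 10 receptors were called by limma-trend, where 0.196% of all tested genes were (0.103% higher and 0.0935% lower). Clec7a and Clec10a had an unadjusted p under 0.05, as did 842 of 10691 tested genes. Limma-voom on recovered reads called 0 receptors too, and 0.196% of all genes. Clec7a had a log2 change of -1.38 (SE 0.28) with a limma-trend adjusted p of 0.15. It was called in 4 of 22 alternatives, after GC correction (-1.32, limma-trend adjusted p = 0.016, with 0.546% of all tested genes called), in the fit without the Atf3KO libraries (0.039), and with the replicate block in that fit (0.013) or without Atf3KO replicate 2 and with GC correction (0.020). Clec10a had a log2 change of 1.21 (SE 0.31, limma-trend adjusted p = 0.28). The ranges of the groups were apart for 9 receptors, 3 higher and 6 lower, against 37.2% of all tested genes. Receptors other than Clec7a and Clec10a lay between -0.56 (Clec4n, 95% interval -1.23 to 0.11) and 0.63 (Clec4a3, -0.08 to 1.33). The median was -0.29 over the 10 receptors and 0.01 over all tested genes.

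In the JunDKO libraries 4 of the 10 receptors were called, all lower, where 4.97% of all tested genes were called, 2.27% lower and 2.69% higher. Clec4a1 fell by 2.44 on the log2 scale (SE 0.23, n = 2 libraries per group, limma-trend adjusted p = 0.00056) and Clec4e by 2.14 (SE 0.25, limma-trend adjusted p = 0.0014). Both were called in 22 of 22 alternatives, GC correction (-2.38 and -2.08), equal library medians and each left-out library included. Clec4a2 fell by 1.30 (SE 0.24, limma-trend adjusted p = 0.010) and Clec5a by 1.29 (SE 0.26, limma-trend adjusted p = 0.016). Both calls were lost without any 1 of the 4 libraries of this comparison. With 1 of them left out, the values were -1.16 to -1.45 for Clec4a2 and -1.11 to -1.47 for Clec5a, but the limma-trend adjusted p were 0.060 to 0.108 and 0.053 to 0.128. Leaving out Scramble replicate 1 gave 0.064 and 0.053, Scramble replicate 2 gave 0.080 and 0.128, JunDKO replicate 1 gave 0.108 and 0.123, and JunDKO replicate 2 gave 0.060 and 0.116. Clec10a had a log2 change of 1.57 (SE 0.31, limma-trend adjusted p = 0.015) under the 16 RPKM limit. Clec4n, Clec4d, Clec4a3, Clec7a and Clec12a, between -0.43 and 0.38, were not called. Groups did not overlap for 9 receptors, 3 higher and 6 lower, against 61.6% of all tested genes. The neighbours at the end of the Clec4 cluster, Clec4d and Clec4e, lie on opposite strands, and their log2 fold changes were -0.43 (95% interval -0.93 to 0.07) and -2.14 (-2.72 to -1.55). The median over the 10 receptors was -0.35, against 0.23 over all tested genes, and at equal library medians these were -0.63 and -0.04. Of the 7 macrophage markers, which summed to 16675 to 17215 RPKM in JunDKO and 22119 to 23632 in Scramble and mostly Lyz2, 3 were lower in both JunDKO libraries (Lyz2, Adgre1 and Itgam) and 4 were higher (Csf1r, Cd68, Mertk and Fcgr1). Of 8 neutrophil markers S100a8 was above 0 in Scramble (sums 33.2 and 34.8 RPKM) and at 0 in JunDKO. The part of these shifts in the receptor values was not tested.

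**Figure D3:**
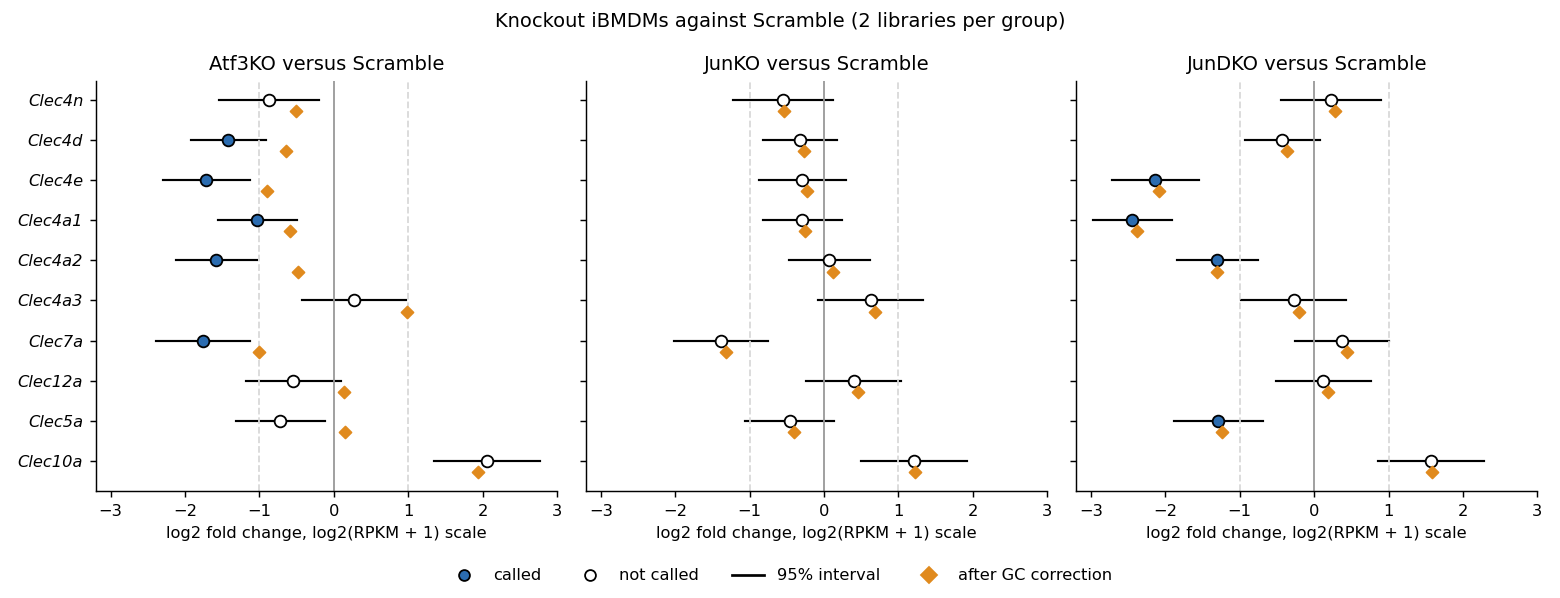
Log2 fold change of each receptor against Scramble on the log2(RPKM + 1) scale, with 95% intervals (2 libraries per group). Filled circles were called, open circles were not, orange diamonds are the values after GC correction and dashed lines mark 2-fold. The diamonds move toward 0 for the called receptors of Atf3KO and stay near the circles in JunKO and JunDKO, where Clec4a1 and Clec4e lie beyond -2.

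The knockouts were also compared with each other, which tests whether a receptor differs between them. Between JunDKO and JunKO, 4 receptors were called where 3.5% of all tested genes were (1.9% lower, 1.6% higher). Clec4a1 (-2.15, SE 0.23, limma-trend adjusted p = 0.0013), Clec4e (-1.84, SE 0.25, limma-trend adjusted p = 0.0042) and Clec4a2 (-1.38, SE 0.24, limma-trend adjusted p = 0.011) were lower in JunDKO, and Clec7a was higher (1.76, SE 0.28, limma-trend adjusted p = 0.0072). The call of Clec4a1 held in 22 of 22 alternatives. That of Clec7a was lost without JunKO replicate 1 (limma-trend adjusted p = 0.073), JunDKO replicate 1 (0.086) or JunDKO replicate 2 (0.081), that of Clec4e without JunDKO replicate 1 (0.061), and that of Clec4a2 without JunKO replicate 1, JunKO replicate 2, JunDKO replicate 1 or JunDKO replicate 2 (0.066, 0.092, 0.119 and 0.068). Between JunDKO and Atf3KO, 3 were called where 12.2% of all tested genes were (5.5% lower, 6.73% higher). Clec7a was 2.14 higher in JunDKO (SE 0.28, limma-trend adjusted p = 0.00093) and 1.45 higher after GC correction, and was called in 20 of 20 alternatives with values of 1.26 to 2.57. Clec4a1 was lower (-1.42, SE 0.23, limma-trend adjusted p = 0.0026), at -1.79 after GC correction. Clec4n (1.10, SE 0.29, limma-trend adjusted p = 0.019) lost its call in 8 of 20 alternatives, among them GC correction (0.78) and those without Atf3KO replicate 2 (0.65), JunDKO replicate 1 (limma-trend adjusted p = 0.081) or JunDKO replicate 2 (0.111). After GC correction Clec4e (-1.19), Clec5a (-1.39) and Clec4a3 (-1.20) were called lower in JunDKO than in Atf3KO too, where 8.6% of all tested genes were called with that correction. Between Atf3KO and JunKO, Clec4a2 (-1.65, SE 0.24, limma-trend adjusted p = 0.0025), Clec4e (-1.42, SE 0.25, limma-trend adjusted p = 0.0055) and Clec4d (-1.09, SE 0.22, limma-trend adjusted p = 0.0079) were called lower in Atf3KO, where 9.71% of all tested genes were called (3.68% lower and 6.03% higher). After GC correction 0 were called, where 5.67% of all tested genes were, with values of -0.60, -0.66 and -0.39. Clec4d also lost its call without Atf3KO replicate 2 (-0.79) or JunKO replicate 2 (limma-trend adjusted p = 0.063). Without Atf3KO replicate 1, Clec12a (-1.40) and Clec4a1 (-1.09) were called as well, and in JunDKO against Atf3KO so were Clec4d (1.29) and Clec12a (1.12).

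KLA for 1 h raised Clec4e and no other receptor past the call. In C57Bl/6EiJ it rose from 3.74 to 43.2 RPKM, a ratio of 11.6, and in Balb/cJ from 13.3 to 183 in the library of the same label date, a ratio of 13.8, and to 103 in the later library, a ratio of 7.75. The log2 fold change with strain as covariate was 3.25 (SE 0.32, limma-trend adjusted p = 0.0030), higher in 3 of 3 KLA libraries, where 1.13% of 10357 tested genes were called, 1.0% higher and 0.126% lower. Without the Balb/cJ vehicle library the value was 3.22 but the limma-trend adjusted p was 0.20. Clec4d, its partner, measured 1.14 times its vehicle level in C57Bl/6EiJ and 1.57 and 0.899 times in Balb/cJ (log2 fold change 0.22, SE 0.32). Clec4a1, Clec4a2, Clec4a3, Clec7a and Clec12a were lower in each of the 3 KLA libraries than in the vehicle library of their strain, with ratios of 0.484 to 0.930, and none was called. Clec4a2 (-0.71, SE 0.23) and Clec7a (-0.67, SE 0.28) had the smallest p of these, both with limma-trend adjusted p over 0.05 (0.24 and 0.32). KLA and vehicle libraries did not overlap for 3 of the 9 receptors tested (Clec4e higher, Clec7a and Clec4a2 lower), against 23.7% of all tested genes. Over the 9 the median was -0.43, against -0.15 over all tested genes. Clec10a was not tested, with a mean under 1 RPKM. The interaction of KLA and strain, fitted with 1 residual degree of freedom, called 0 receptors and 0 of all tested genes (0.0%) by limma-trend, where 835 genes had an unadjusted p under 0.05. Of the receptors, Clec4n alone had an unadjusted p under 0.05, and the interaction for Clec4e was 0.05 (95% interval -1.80 to 1.91).

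**Figure D4:**
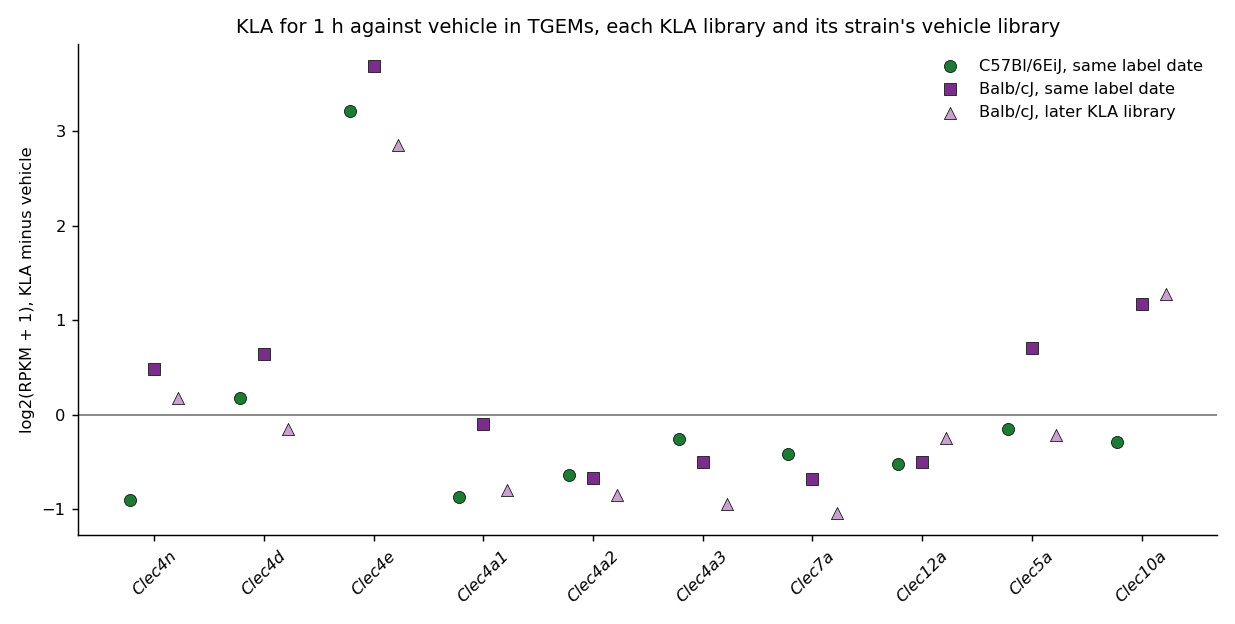
Difference in log2(RPKM + 1) between each KLA library and the vehicle library of its strain, for each receptor. Circles are C57Bl/6EiJ, squares Balb/cJ of the same label date and triangles the later Balb/cJ KLA library. Clec4e lies at 2.86 to 3.69, and the other points lie between -1.04 and 1.28.

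Between the strains, with treatment as covariate, 0 of the 9 receptors tested were called by limma-trend, where 1.16% of all tested genes were (0.386% higher and 0.772% lower). Of the 9 receptors 4 had an unadjusted p under 0.05, as did 2213 of 10357 tested genes. Limma-voom on recovered reads called 2, Clec4e and Clec4a3, and 3.33% of all genes. Clec4e was 1.62 higher in Balb/cJ (SE 0.32, limma-trend adjusted p = 0.0501) and Clec4a3 1.31 higher (SE 0.28, limma-trend adjusted p = 0.061). The strains did not overlap for Clec4a3, Clec4d and Clec12a, 3 of 9, against 35.1% of all tested genes. Clec4e and Clec4a3 were called in 6 and 4 of 15 alternatives, both without Balb/cJ KLA replicate 2 (1.82 and 1.45, limma-trend adjusted p of 0.020 and 0.038). After GC correction they were 1.20 and 0.92. The Balb/cJ reads were aligned to a genome of that strain, and strain moved with label date and, in these data, with GC content (rho = -0.45), and the part of each was not tested.

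The receptor makeup also differed between the 2 kinds of macrophage. Against Scramble iBMDMs, C57Bl/6EiJ vehicle TGEMs had 7 of 10 receptors called, 6 lower and 1 higher, where 21.1% of 10929 tested genes were called (13.2% lower and 7.89% higher). Clec4e had a log2 change of -5.27 (SE 0.33, limma-trend adjusted p = 1.6e-06), Clec4a1 of -4.21 (SE 0.31) and Clec4n of -3.57 (SE 0.38). Clec5a was at -2.83 (SE 0.36), Clec4d at -1.67 (SE 0.31) and Clec4a2 at -1.39 (SE 0.25). Clec7a was 3.67 higher (SE 0.31, limma-trend adjusted p = 8.8e-06), and the C57Bl/6EiJ vehicle library itself measured 535 RPKM against 42.9 and 47.03, a difference of 3.55. Clec4e, Clec4a1, Clec4n, Clec5a and Clec7a were called in 22 of 22 alternatives. Clec4d was lost at the 4-fold limit alone, and Clec4a2 at that limit and after GC correction (-0.57, limma-trend adjusted p = 0.051). Clec12a differed by -0.04 (95% interval -0.70 to 0.62) and was 0.58 after GC correction, and Clec4a3 (-0.91) and Clec10a (-0.95) were not called. The median was -1.53 over the 10 receptors and -0.28 over all tested genes, and after GC correction -0.97 and -0.23. These are fitted values of a model with treatment and strain terms, so all 5 TGEM libraries enter the level of C57Bl/6EiJ vehicle, which has 1 library. That library alone differed from the Scramble mean by values within 0.02 to 0.35 of the fitted ones for the 7 called receptors, on the same log2 scale. Cell source, culture and label date cannot be told apart. Of the macrophage markers 5 were lower in C57Bl/6EiJ vehicle TGEMs than in both Scramble libraries (Csf1r, Adgre1, Itgam, Fcgr1 and Lyz2) and 2 were higher (Cd68 and Mertk), and the 7 summed to 7758 RPKM against 22119 to 23632. The TGEM libraries also held markers of other cells, with sums over 3 genes each of 4.31 to 14.7 RPKM (B cells), 17.1 to 34.5 (fibroblasts) and 1.78 to 13.2 (mast cells), against at most 0.49, 0.11 and 0.26 in iBMDMs. The 7 dendritic cell markers summed to 1.00 to 3.71 RPKM in TGEMs and at most 0.76 in iBMDMs, and the 3 T cell markers to at most 0.52 in any library. Of 8 neutrophil markers, S100a9, Ly6g, Camp and Retnlg were at 0 in all 13 libraries, and the sum was 0.79 to 13.4 RPKM in TGEMs and 0 to 41.1 in iBMDMs. The 3 eosinophil markers summed to 0.67 to 4.06 RPKM in TGEMs and at most 1.29 in iBMDMs, and of the resident peritoneal macrophage markers Gata6 and Timd4 the sum was 2.85 to 5.64 RPKM in TGEMs and 0 in iBMDMs. Their part in the receptor values was not tested.

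Adaptors and signalling genes of these receptors were followed as a list of 16 genes. In Atf3KO 2 of the 15 tested were called, both higher, a share close to the 12.5% of all tested genes, so the count shows nothing particular to the list. At a limma-trend adjusted p under 0.05 alone, Fcer1g, Card9 and Inpp5d were among those higher, and Hcst, Malt1, Vav1 and Prkcd were lower, named after their values were seen. Malt1 measured 1.96 and 0.914 RPKM in Atf3KO against 7.27 and 8.90, under the 16 RPKM limit, and Hcst had 0 reads against 9.51 and 4.02 RPKM. Fcer1g, the FcR gamma chain, measured 1009 and 903 RPKM in Atf3KO against 413 and 378 in Scramble (1.27, SE 0.16, limma-trend adjusted p = 0.0011), and 1.09 after GC correction, where it was still called. The adaptor was higher in the libraries in which its partners Clec4d and Clec4e were lower. Card9 measured 25.3 and 39.1 RPKM against 17.5 and 9.87 (1.20, SE 0.32, limma-trend adjusted p = 0.019), and 0.62 after GC correction, and was not called without Scramble replicate 2 (0.81) or Atf3KO replicate 2 (0.89). Against JunKO, Card9 was called (1.12, SE 0.32, limma-trend adjusted p = 0.028) but not after GC correction (0.60) or without any 1 of Atf3KO replicate 2 and the JunKO and JunDKO libraries (0.82 to 1.36, limma-trend adjusted p of 0.053 to 0.172). In JunKO and in JunDKO 0 of the 15 were called against Scramble, where 0.196% and 4.97% of all tested genes were. Limma-voom called 0 too. An unadjusted limma-trend p under 0.05 was found for 3 and 5 of the 15, and for 842 and 2939 of 10691 tested genes. At a limma-trend adjusted p under 0.05 alone, 2 of the 15 changed in JunDKO, where 1256 of 10691 tested genes did. These 2 are named after their values were seen. Syk measured 26.6 and 29.2 RPKM in JunDKO against 55.2 and 54.4 in Scramble (-0.95, SE 0.18, limma-trend adjusted p = 0.011), just short of the 2-fold limit. It was called at equal library medians (-1.23) and with quantile normalization (-1.11), and without any 1 of these 4 libraries its limma-trend adjusted p was 0.068 to 0.102. Inpp5d, a lipid phosphatase (SHIP1), measured 79.5 and 76.9 RPKM against 51.0 and 49.4 (0.63, SE 0.16, limma-trend adjusted p = 0.037), and 0.35 at equal library medians (limma-trend adjusted p = 0.23). Without any 1 of the 4 libraries its limma-trend adjusted p was 0.122 to 0.191. Hcst (DAP10) had 0 reads in both Atf3KO libraries and 26.6 and 6.84 RPKM in JunDKO, and was called in that comparison (limma-trend adjusted p = 0.0019), also after GC correction. It is 1 of the 697 gene models at 0 in both Atf3KO libraries and with reads in the other 6 iBMDM libraries. The call rests on JunDKO replicate 1 (18 reads), without which Hcst lay under the 16 RPKM limit and was not called (log2 change 2.97, limma-trend adjusted p = 0.013). KLA and strain called 0 of 16 by limma-trend, where 1.13% and 1.16% of all tested genes were called. An unadjusted p under 0.05 was found for 4 and 3 of the 16, and for 1553 and 2213 of 10357 tested genes. With limma-voom on recovered reads, KLA called Malt1 (1.35) and Bcl10 (1.29) higher, and Malt1 (1.06) was called higher in Balb/cJ, where limma-voom called 2.2% and 3.33% of all genes. Both act downstream of CARD9, and they are named here after their values were seen. In TGEMs against Scramble 6 of 16 were called, 3 higher and 3 lower, where 21.1% of all tested genes were called (7.89% higher and 13.2% lower). Fgr (16.5 against 1.56 and 0.878 RPKM) and Tyrobp, the DAP12 adaptor of Clec5a (2262 against 722 and 507), were higher by 3.01 (SE 0.27) and 1.82 (SE 0.26). Lyn (30.8 against 85.7 and 81.2) and Bcl10 (15.0 against 27.1 and 31.7) were lower, at -1.35 (SE 0.22) and -1.30 (SE 0.33). The limma-trend adjusted p of Fgr, Tyrobp, Lyn and Bcl10 were 1.3e-05, 0.00026, 0.00067 and 0.0089, and after GC correction the calls of Lyn (-0.95) and Bcl10 (-0.99) were lost. That of Bcl10 was also lost without Scramble replicate 2 (-1.19), C57Bl/6EiJ KLA (-0.93) or Balb/cJ vehicle (-0.93), and the C57Bl/6EiJ vehicle library alone differed by -0.93 for Bcl10, under the 2-fold limit. Syk was called higher (1.07) and Plcg2 lower (-1.11). Both calls were lost without the C57Bl/6EiJ vehicle library (0.80 and -0.98), that of Syk also after GC correction (0.87), and that of Plcg2 also without Scramble replicate 1 (-0.99), at equal library medians (-0.85) and with quantile normalization (-0.92).

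Of 28 other C-type lectin receptors 5 had enough RNA to be tested in iBMDMs, and 1 was called against Scramble in JunDKO, 0 in Atf3KO and 0 in JunKO, where 4.97%, 12.5% and 0.196% of all tested genes were called. In Atf3KO and JunKO 4 and 2 of the 5 had an unadjusted p under 0.05, as did 5543 and 842 of 10691 tested genes. Limma-voom called 0 of the 5. Mrc1, the mannose receptor, measured 1.18 and 0.995 RPKM (Scramble), 16.4 and 12.2 (Atf3KO), 13.98 and 14.3 (JunKO) and 62.7 and 63.2 (JunDKO). The order was therefore Scramble, then Atf3KO and JunKO, which overlapped, then JunDKO. It was called in JunDKO against Scramble (4.94, SE 0.20, limma-trend adjusted p = 8.8e-06), JunKO (2.08) and Atf3KO (2.07, or 1.64 after GC correction). In Atf3KO and JunKO the log2 fold changes of Mrc1 over Scramble were 2.87 (3.37 after GC correction) and 2.86, under the 16 RPKM limit. In C57Bl/6EiJ vehicle TGEMs it measured 38.8 RPKM, 4.35 above Scramble (SE 0.25, limma-trend adjusted p = 8.5e-07). Olr1 (LOX-1), a receptor for oxidised low-density lipoprotein, measured 0.433 RPKM (C57Bl/6EiJ) and 0 (Balb/cJ) with vehicle and 8.29 (C57Bl/6EiJ), 26.7 and 12.8 (Balb/cJ) with KLA, and is named after its values were seen. Its log2 change was 3.61 on the log2(RPKM + 1) scale (SE 0.45, limma-trend adjusted p = 0.0091), and its KLA mean of 15.94 RPKM missed the 16 RPKM limit. Without the Balb/cJ vehicle library the value for Olr1 was 2.70 (limma-trend adjusted p = 0.32). KLA and strain called 0 of 7 tested by limma-trend and by limma-voom. Of all tested genes, limma-trend called 1.13% and 1.16%, and limma-voom 2.2% and 3.33%. In limma-trend 2 of the 7 each had an unadjusted p under 0.05, as did 1553 and 2213 of 10357 tested genes. Within the Clec4 cluster, Clec4b1 was at 0 in both Scramble libraries and at 10.4 and 6.73 RPKM (31 and 33 reads) in Atf3KO, and stayed at or below 1.72 in the other 9 libraries. Clec4a4 and Clec4b2 stayed at or below 1.08 RPKM in all 13 libraries. Clec4b1, Clec4a4 and Clec4b2 were named after their values were seen, as the models that lie between the receptors.

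Like patterns across the 8 iBMDM libraries, which share their groups and differ in depth, are given as Pearson's r of log2(RPKM + 1). They are a description, without clustering or GC correction, and Clec10a, under 16 RPKM in each group, was left out. Clec4e followed Clec4a2 (r = 0.945), Clec4a1 (0.910) and Clec5a (0.899), and Clec4a1 followed Clec5a (0.926). Clec7a followed Clec4n (0.931) and not Clec4e (-0.026), whereas Clec4d followed both Clec4a2 (0.794) and Clec4n (0.719). For Clec4a3 the highest r was 0.591, with Clec4a1. Among 5428 genes with a group mean of at least 16 RPKM, the one most like Clec4a1 was Cd300ld (0.993), which measured 200.04 RPKM on average (Scramble), 104 (Atf3KO), 163 (JunKO) and 54.6 (JunDKO), followed by Slamf9 (0.990) and Gbe1 (0.988). The one most like Clec7a was Cd300a (0.995), with averages of 29.4, 15.8, 17.4 and 36.3 RPKM, followed by Rnf111 (0.978) and Atp2b1 (0.968). Clec4e was nearest to Uso1 (0.988), Npepps (0.986) and Tfrc (0.984), Clec4d to Farsb (0.991), Gtpbp4 (0.989) and Hsp90aa1 (0.984), and Clec4a2 to Flrt2 (0.982), Cd302 (0.982) and Rsad2 (0.98). Clec5a was nearest to Lilr4b (0.979), Adgre1 (0.970) and Atp8b4 (0.965), Clec4n to Ptcd3 (0.977), Prpf18 (0.970) and Kcnj2 (0.969), Clec12a to Atp5c1 (0.974), Dram2 (0.956) and Pttg1 (0.946), and Clec4a3 to Lyz2 (0.915), Raet1d (0.913) and Pdk1 (0.883).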

How the data were processed

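PolyA RNA-seq values of 13 of 17 samples were used, and 4 GRO-seq samples were not analysed here. The authors deposited RPKM per gene model. They aligned reads with STAR at default settings to mm10 (Balb/cJ reads to a version of mm10 carrying that strain's variants) and counted exonic reads with HOMER. Versions and strand setting are not given in the sources used here. The authors used edgeR on reads, which was not used here.

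The members and lists were chosen with earlier results of these data known. All 10 receptors are named. From the lists, called genes are named, largest first and at most 4 per comparison, apart from TGEMs against Scramble. There all 6 called signalling genes are named. As genes with like patterns, the 3 with the highest r are named. Depth and whole reads were recovered from the RPKM steps (100.0% of values of up to 50 reads within 0.05 of a whole number). Exonic reads were 74.1% to 86.4% of a library. No libraries were identical.

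log2(RPKM + 1) was fitted with limma-trend (limma 3.58.1, R 4.3.3) for genes with a mean of at least 1 RPKM, with a coefficient per iBMDM group (8 libraries, 4 residual degrees of freedom) or with treatment and strain in TGEMs (5 libraries, 2 degrees), and over all 13 libraries between cell types. Two-sided p values received Benjamini-Hochberg adjustment across every gene tested. Folds on this scale understate changes of genes with low values. The script was tested on simulated data. GC correction removed a natural spline with 5 degrees of freedom per library relative to the mean of libraries. GC content was known for 98.8% of gene models. Alternatives were 2 other pseudocounts, filters, scalings, a 4-fold limit, limma-voom on recovered reads, a replicate block and each library left out, where a lone library is assumed to vary like other groups. GC correction and fits without Atf3KO libraries were chosen after seeing the data. Python 3.11.15, numpy 2.4.6, pandas 2.3.3 and matplotlib 3.10.9 were used.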

Additional observations from a re-analysis of the deposited data

Results flagged for a closer look

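Clec4n and Clec10a had KLA differences of opposite sign in the 2 strains. Clec4n was lower with KLA in C57Bl/6EiJ (3.40 to 1.35 RPKM, 44 and 5 reads) and higher in both Balb/cJ libraries (2.26 to 3.57 and 2.68 RPKM, from 6 reads with vehicle). The interaction of KLA and strain was 1.23 (SE 0.46, limma-trend adjusted p = 0.61), so it fails the correction. Clec10a differed by -0.29 on the log2 scale in C57Bl/6EiJ (21 and 4 reads) and by 1.17 and 1.28 in Balb/cJ, where the vehicle library had 0 reads, and that difference was not tested.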

How the results depend on the processing

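Counts are of receptors called. With the 4-fold limit they were 0 in Atf3KO against Scramble, 2 in JunDKO, 1 in JunDKO against JunKO, 1 in JunDKO against Atf3KO and 0 in Atf3KO against JunKO. After GC correction, without or with Atf3KO replicate 2 left out, they were 1 in Atf3KO (Clec7a, or Clec4a3 with that library left out), 1 in JunKO, 5 in JunDKO against Atf3KO and 0 in Atf3KO against JunKO. In JunKO the count was also 1 in the fit without the Atf3KO libraries. Between strains it was 1 with a pseudocount of 0.1 or quantile normalization and 2 at equal library medians, with limma-voom or with all 13 libraries in a single fit. Leaving out 1 library at a time gave 4 to 7 in Atf3KO, 0 in JunKO, 2 to 4 in JunDKO, 1 to 4 in JunDKO against JunKO, 2 to 5 in JunDKO against Atf3KO, 2 to 5 in Atf3KO against JunKO, 0 to 1 for KLA, 0 to 2 between strains and 7 in TGEMs against Scramble. Of 27 calls 9 held in each alternative tried and 11 in each but the 4-fold limit, and 0 were called with another sign.

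Over all tested genes, 838 were called higher and 501 lower in Atf3KO, and 681 and 624 at equal library medians. In JunDKO these were 288 and 243, and 164 and 363. In TGEMs against Scramble they were 862 and 1439, and 1085 and 1107. In JunDKO against JunKO they were 171 and 203, and 106 and 300, in JunDKO against Atf3KO 719 and 588, and 545 and 818, and between strains 40 and 80, and 57 and 62. After GC correction, calls over all genes went from 1339 to 815 in Atf3KO, from 21 to 58 in JunKO and from 1038 to 602 in Atf3KO against JunKO. With limma-voom they went from 117 to 228 for KLA and from 120 to 345 between strains, and with the replicate block from 21 to 8 in JunKO.

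The replicate block left the counts at 5 in Atf3KO, 0 in JunKO and 4 in JunDKO and changed no receptor's call among all 6 knockout comparisons. In the fit without the Atf3KO libraries the count in JunKO was 1 (Clec7a), with the block and without it. The correlation of deviations of same-numbered libraries was 0.185 to 0.225 among Scramble, JunKO and JunDKO, which share a label date, and -0.215 to -0.120 between each of these and Atf3KO. With 2 numbers per group, and no label that ties a number to a shared culture, whether the numbers pair the libraries was not settled.

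With 1 or 2 libraries per group, small differences cannot be resolved. Clec10a rests on 5 and 7 reads in Scramble and is limited by depth. KLA has 1 vehicle library per strain.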
